A study of Mus musculus with 29 samples.

Results

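Semaphorins, plexins and neuropilins are described here as the 31 mouse genes whose symbols name a semaphorin of class 3 to 7, a plexin, or neuropilin 1 or 2, among 22779 gene IDs measured in the alveolar septa of the developing lung. All 31 genes named by this rule were in the data, each on 1 line: 2 neuropilins, 9 plexins, 7 semaphorins of class 3, 6 of class 4, 2 of class 5, 4 of class 6 and 1 of class 7. The samples were 29 RNA sequencing libraries from wild type C57BL/6 mice of 15 ages, 1 library per animal, with 2 animals at every age but P28, which had 1. The labels name no treatment and no other allele. Alveolar septa were cut from frozen lung sections with a laser, and each value is in FPKM, a level corrected for transcript length and for the number of mapped fragments. For the comparisons the ages were joined into 4 stage groups: a prenatal group of 4 animals at E16.5 or E18.5, a postnatal saccular group of 8 from P0.5 to P2.5, an early alveolar group of 8 from P4 to P10 and a late alveolar group of 9 from P13.5 to P28. E counts days after conception and P days after birth, and animals are named by the letter or number in their label.

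Semaphorins are guidance proteins, first known for steering growing axons and since found to steer vessels, epithelial cells and immune cells as well. Class 3 members are secreted, classes 4 to 6 span the membrane, and class 7 is held to the membrane by a lipid anchor. Plexins are the signalling receptors. Most class 3 semaphorins need a neuropilin as the binding partner of an A-type plexin, and neuropilins also bind members of the vascular endothelial growth factor (VEGF) family. In the lung this family has been studied for airway branching, for growth of the capillary bed and for formation of the septa that divide the air spaces.

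Summed FPKM ran from 318176 to 457706 per library, and 10114 to 13059 genes reached 1 FPKM. Read depth is unknown, so no counting interval is given and the spread between animals is the error. The septa held mixed cell types: markers of endothelium, type 1 and type 2 epithelium, fibroblasts and smooth muscle were above 0 in every stage group. The 2 E16.5 libraries were rich in heart muscle genes, with summed FPKM of 995 and 2068 over 5 genes against 7.14 to 451 in the other 27 libraries. P15 pup c and P28 pup c stood high in macrophage genes, at 143 and 95.5 FPKM over 4 genes against 17.0 to 48.4 in the other libraries. P10 pup a, P19 pup d and P19 pup f listed 416, 578 and 242 of 8623 commonly expressed genes at 0, against at most 112 in any other library. In such bulk material, fewer cells of a type and less RNA per cell cannot be told apart.

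Nrp1 had the highest mean of the family, 107 FPKM over the 29 libraries, followed by Sema3c at 93.1, Plxnb2 at 54.5, Sema3a at 45.3, Sema6a at 43.6, Plxna1 at 41.4 and Sema6d at 41.2 FPKM. FPKM is a level per length, so these levels can be set side by side. Means ranged from 0.234 FPKM (Plxnb3) to 54.5 among plexins, from 5.35 (Sema3d) to 93.1 in class 3, from 2.34 (Sema4g) to 13.3 (Sema4c) in class 4, and from 0.881 (Sema6b) to 43.6 in class 6. The class 5 pair stood at 14.8 (Sema5a) and 0.849 FPKM (Sema5b), and Sema7a at 11.6. Plxnb3, whose protein binds Sema5a, was listed at 0 in 12 libraries and reached 1 FPKM in 1, so it did not pass the filter of 1 FPKM in at least 4 libraries. The other 30 genes passed and were tested among 14616 genes. Plxna3, Sema5b, Sema6b and Sema6c passed with 1 FPKM or more in only 8 to 13 libraries, and their changes rest on low values.

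**Figure D1:**
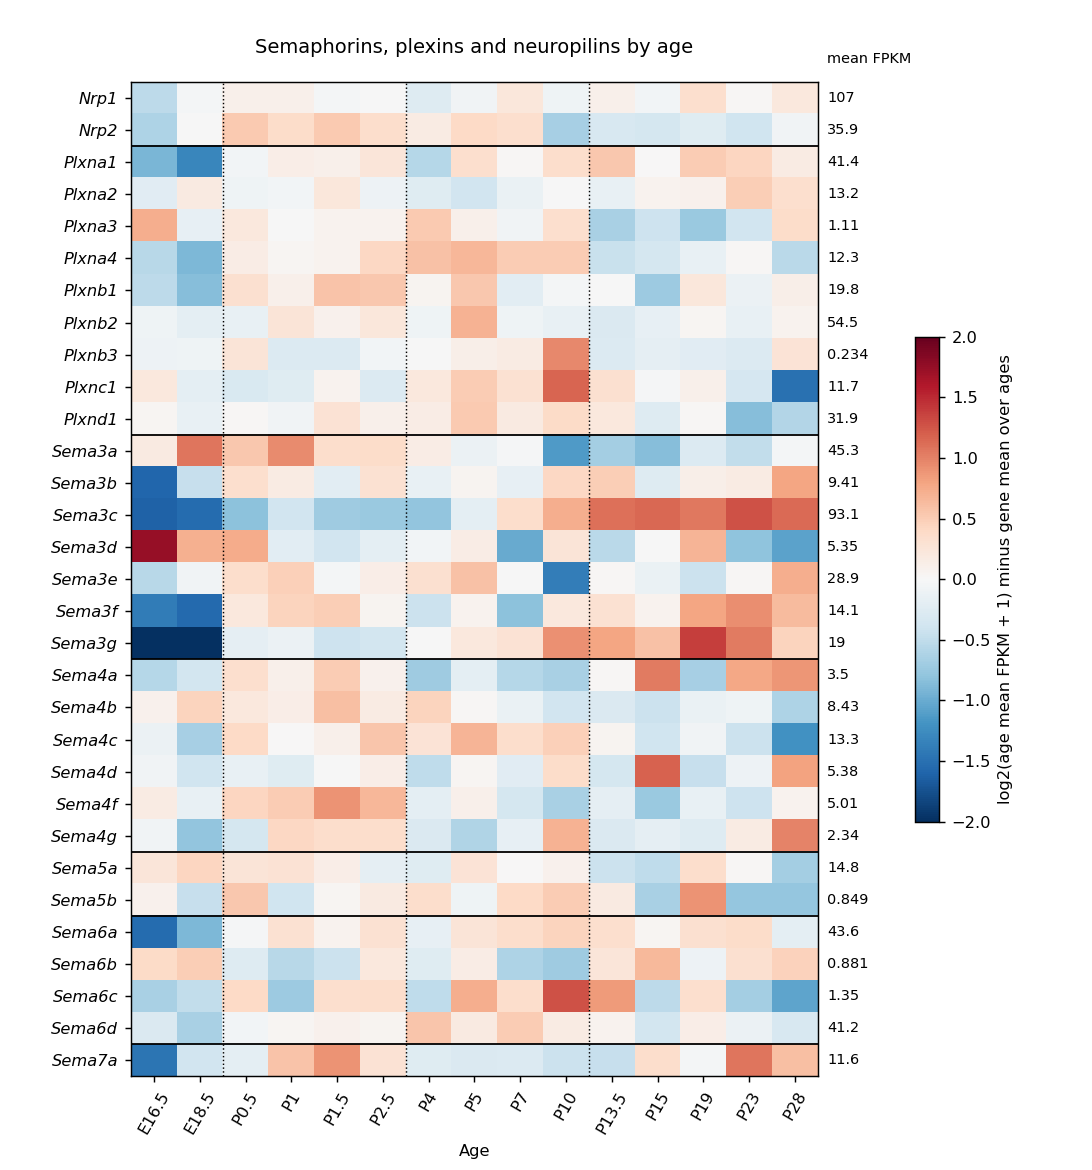
Heat map of the 31 genes (rows, by class) over the 15 ages (columns). Colour gives log2(age mean FPKM + 1) minus the gene's mean over ages, the numbers at the right give the mean FPKM over 29 libraries, horizontal lines separate classes and dotted lines separate the 4 stage groups. Sema3c, Sema3f and Sema3g run from blue before birth to red at late ages. Sema3a has its highest mean at E18.5, 87.5 FPKM, and its lowest at P10, 18.4 FPKM, and stands at 40.1 FPKM at P28. Sema3d is reddest at E16.5 and varies after birth, with a mean of 7.65 FPKM at P19.

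Changes between stage groups were tested with limma on log2(FPKM + 1), in 1 fit over all genes, and calls were made where the Benjamini-Hochberg adjusted p was below 0.05. On this scale the change of a low gene is understated. Between the prenatal and the postnatal saccular group 13 of the 30 genes were called, 12 higher and 1 lower, or 43.3% against 15.9% of all genes tested. Called higher were 9.11% of all genes and called lower 6.81%. The median log2 change was 0.58 over the 30 genes and -0.00 over all genes. For 9 of them every postnatal saccular library lay above every prenatal one, as for 5.55% of all genes. None lay wholly below, as 4.52% of all genes did. Of the 12 that rose, 4 were class 3 semaphorins, 3 plexins, 1 a neuropilin, and the rest Sema4c, Sema6a, Sema6d and Sema7a. Sema3d alone fell.

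The prenatal group joined ages that differ in cell makeup. With only the E18.5 embryos as prenatal libraries, 8 genes were called, all higher, against 5.81% of all genes (4.05% higher and 1.76% lower), and Nrp2, Sema3b, Sema3c, Sema3d and Sema7a were not among them. Leaving out E16.5 embryo 9 alone gave 8 as well, a count given without the share of all genes. Between E18.5 and E16.5 themselves limma called 0 of the 30 genes, against 4.53% of all genes called (2.52% higher and 2% lower). Of the 30, 7 had an unadjusted p below 0.05, a count given without the share of all genes. Endothelial genes moved with the birth comparison: the sum of 7 markers ran from 283 to 341 FPKM at E16.5, 598 to 660 at E18.5 and 599 to 945 in the postnatal saccular group. Sums of 5 type 1 epithelial markers were 112 to 151, 567 to 625 and 773 to 1348 FPKM in the same order. Their part in the changes of the semaphorin family was not tested.

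Early alveolar and postnatal saccular libraries differed in 0 of the 30 genes by limma, against 1.46% of all genes called (0.527% higher and 0.937% lower). Of the 30, 11 had an unadjusted p below 0.05, for which the share of all genes is not given. None of the 30 was without overlap, as 0.171% of all genes were upward and 0.301% downward. Nearest to the threshold were Sema4f (log2 change -0.95, adjusted p = 0.0527), Sema3c (0.70, adjusted p = 0.0578) and Sema3a (-0.80, adjusted p = 0.0768). Late against early alveolar, 7 were called, 2 higher and 5 lower, or 23.3% against 11.4% of all genes (3.89% higher and 7.47% lower). The median change was -0.07 over the 30 genes and -0.09 over all genes. Plexins made up 3 of the 5 that fell, Plxna4, Plxnc1 and Plxnd1. Over the longer step from the postnatal saccular to the late alveolar group 7 of 30 were called as well, 2 higher and 5 lower, against 11.6% of all genes (4.41% higher and 7.15% lower). The median change was -0.23 over the 30 genes and -0.16 over all genes. These comparisons share libraries. Scaling moved the split: from early to late it was 3 higher and 4 lower with median ratio scaling, and 4 and 4 with quantile normalization. From the postnatal saccular group to the late alveolar group it was 2 and 3, and 3 and 4. The median of all genes in that last comparison was -0.10 and -0.03 under these 2 scalings, so small decreases are to be read against that shift.

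**Figure D2:**
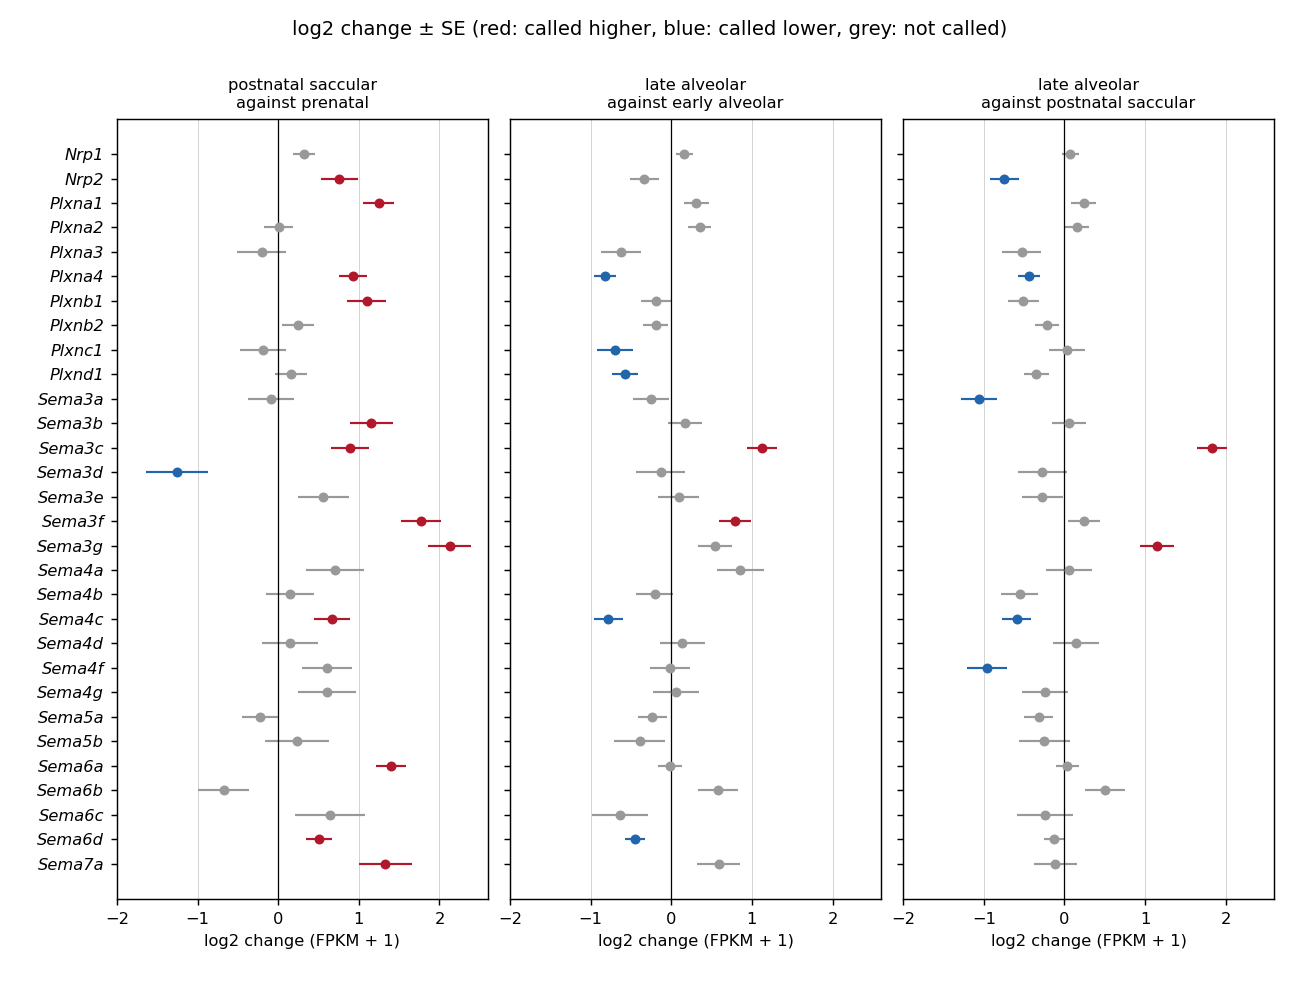
log2 changes on the log2(FPKM + 1) scale (points) with their standard errors (bars) for the 30 genes tested, in 3 comparisons of stage groups. Red points were called higher, blue points called lower, and grey points were not called. The left panel, at birth, holds 12 red points and 1 blue, and the other panels hold 2 red and 5 blue each.

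A test for any change over the 15 ages, with a smooth curve in log2 days after conception, called 18 of the 30 genes, or 60% against 30.7% of all genes. All 7 class 3 semaphorins passed, the smallest adjusted p being that of Sema3c at 1.8e-11. Of the others, 1 of 2 neuropilins, 4 of 8 plexins, 2 of 6 in class 4, 0 of 2 in class 5, 3 of 4 in class 6 and Sema7a passed. With the postnatal libraries alone 10 of the 30 were called, against 15.3% of all genes tested.

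Nrp1 and Nrp2 took different courses. Nrp1, which binds Sema3a and VEGF, stood at 73.7 and 73.4 FPKM in the E16.5 embryos and at 106 and 99.5 at E18.5. Its lowest, median and highest values were 91.9, 115 and 123 FPKM in the postnatal saccular group, 85.9, 101 and 127 in the early alveolar group, and 96.6, 110 and 139 in the late alveolar group. The groups overlapped, and Nrp1 was called in no comparison of stage groups (log2 change at birth 0.32 ± 0.13 SE, adjusted p = 0.101), although 2 of 41 alternatives, quantile normalization and the fit of 15 ages, called it at birth. Nrp2, which prefers Sema3f and is also a partner of VEGF-C in lymphatic endothelium, stood at 24.0 and 20.0 FPKM at E16.5 and 31.1 and 37.8 at E18.5. It ran from 42.0 through a median of 46.0 to 54.6 FPKM in the postnatal saccular group, above every prenatal value. In the early alveolar group it ran from 13.2 through 41.9 to 48.3, the lowest value being that of P10 pup a. In the late alveolar group it ran from 20.8 through 26.2 to 33.0 FPKM, below every postnatal saccular value, as 1.35% of all genes were.

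Nrp2 rose at birth by 0.76 ± 0.23 (SE) on the log2 scale (limma, adjusted p = 0.0206) and fell by 0.75 ± 0.18 from the postnatal saccular to the late alveolar group (adjusted p = 0.00567). The first call was lost with E18.5 alone (0.45, adjusted p = 0.417) and when either E16.5 embryo was left out. The second was kept under all 41 alternatives. Of all genes, 9.11% were called higher at birth and 7.15% lower in the second comparison. Of 5 lymphatic endothelial markers, Lyve1 was called higher at birth, and Prox1, Mmrn1 and Reln were called lower in the second comparison. The median log2 change of the 5 was 0.09 at birth and -1.26 in the second comparison. Their sum ran from 80.3 to 145 FPKM in the prenatal group and 149 to 394 in the postnatal saccular group. It ran from 80.5 to 205 FPKM in the early alveolar group and 106 to 330 in the late alveolar group. After birth the median sum was lowest in the early alveolar group, at 138 FPKM against 259 before and 166 after. Nrp2 had a median of 41.9 FPKM there and 26.2 in the late alveolar group. Their part in the changes of Nrp2 was not tested.

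The log2 ratio of Nrp1 to Nrp2 was 1.63 ± 0.20 (SD, n = 4) in the prenatal group, 1.19 ± 0.17 (n = 8) in the postnatal saccular group, 1.52 ± 0.56 (n = 8) in the early alveolar group and 2.01 ± 0.26 (n = 9) in the late alveolar group. In FPKM the median ratios were 3.25, 2.38, 2.70 and 4.03. The ratio fell at birth by 0.44 (exact two-sided permutation test over 495 arrangements, p = 0.00404, adjusted over 4 comparisons 0.00808). It was higher in the late alveolar than in the postnatal saccular group by 0.82 (exact permutation over 24310 arrangements, p = 8.23e-05, adjusted 0.000329). The rise of 0.49 from early to late alveolar passed with an adjusted p of 0.0427 in the same exact test, but 14 of 36 alternatives lost it. The 36 include leaving out single prenatal or postnatal saccular libraries, which left this difference unchanged. The early alveolar group was the widest, with P10 pup a at an FPKM ratio of 7.02.

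**Figure D3:**
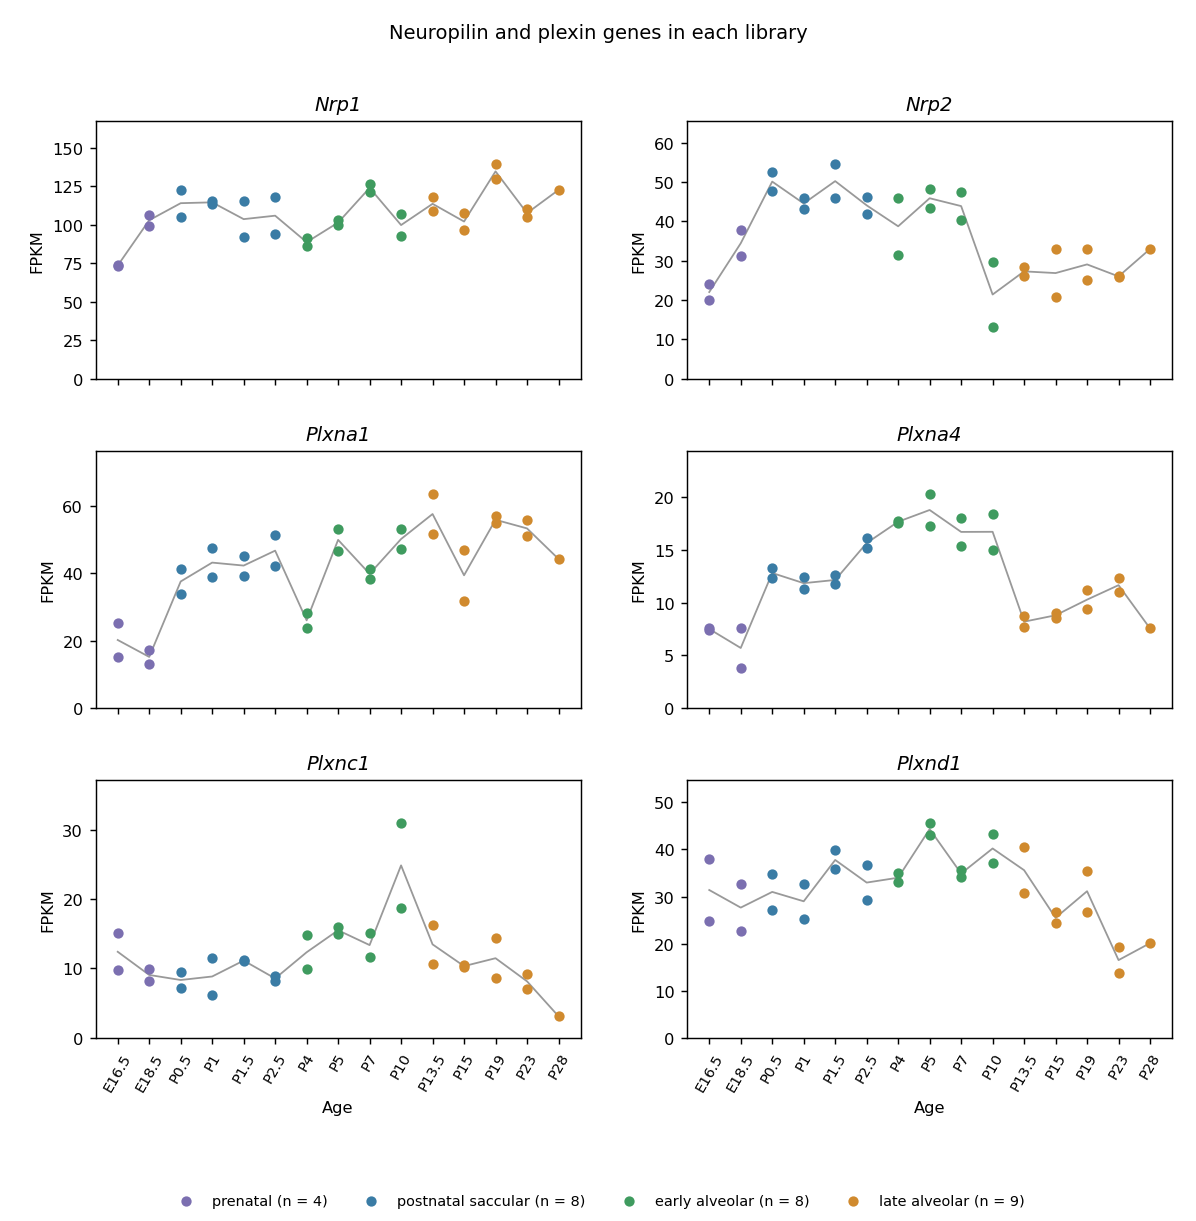
FPKM of Nrp1, Nrp2, Plxna1, Plxna4, Plxnc1 and Plxnd1 (vertical axes, each from 0) in every library by age (horizontal axis). Points are animals coloured by stage group and grey lines join age means. Nrp2 lies between 42.0 and 54.6 FPKM in the postnatal saccular group and between 20.8 and 33.0 in the late alveolar group, and Plxna4 is highest in the early alveolar group.

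Of the 4 A-type plexins, the partners of neuropilins, Plxna1 and Plxna4 rose at birth. Plxna1 stood at 15.2 and 25.3 FPKM at E16.5 and 13.0 and 17.4 at E18.5. In the postnatal saccular group it ran from 34.0 through 41.7 to 51.4 FPKM, wholly above the prenatal values. It rose by 1.25 ± 0.20 (SE) on the log2 scale (limma, adjusted p = 6.3e-05), a 2.40-fold rise of the mean, and kept that call under all 41 alternatives. After birth it dipped to 23.9 and 28.3 FPKM in the P4 pups and otherwise lay between 32.0 and 63.7. Plxna2 held between 8.48 and 19.2 FPKM over all libraries and was called in no comparison. The low gene Plxna3, between 0.0417 and 2.99 FPKM, was called in no comparison either.

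Plxna4, which also binds Sema6a directly, was highest on average in the early alveolar group. Prenatal values were 7.40, 7.61, 3.79 and 7.61 FPKM. The lowest, median and highest were 11.3, 12.5 and 16.1 FPKM in the postnatal saccular group, 15.0, 17.7 and 20.3 in the early alveolar group, and 7.55, 9.02 and 12.3 in the late alveolar group. The early and late alveolar groups did not overlap, as for 0.958% of all genes in that direction. Plxna4 rose at birth by 0.92 ± 0.17 (SE; limma, adjusted p = 0.000375) and fell by 0.83 ± 0.14 from early to late alveolar (adjusted p = 0.000123), both under all 41 alternatives. The step between, of 0.39, was not called (adjusted p = 0.179), and its late values against the postnatal saccular group, lower by -0.43, lost the call in 10 of 41 alternatives.

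Plxnb1, a receptor for Sema4d, stood at 13.5, 12.3, 6.65 and 13.6 FPKM before birth and from 20.0 through 24.6 to 33.4 in the postnatal saccular group, with no overlap. It rose by 1.10 ± 0.24 (SE) on the log2 scale (limma, adjusted p = 0.00227). Plxnb2, a receptor for class 4 semaphorins, was the highest plexin and was called in no comparison, with group means of 48.8, 58.2, 59.3 and 49.6 FPKM.

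Plxnc1 and Plxnd1 fell from early to late alveolar ages. Plxnc1, the receptor for Sema7a, ran from 9.87 through 15.0 to 30.9 FPKM in the early alveolar group and from 3.10 through 10.2 to 16.3 in the late alveolar group, with overlap. Its highest value was that of P10 pup a and its lowest that of the single P28 animal. The fall by 0.70 ± 0.23 (SE; limma, adjusted p = 0.0412) was lost in 16 of 41 alternatives, among them those without P10 pup a (-0.56) and without P28 pup c (-0.53). Plxnd1, the endothelial receptor for Sema3e, ran from 33.1 through 36.4 to 45.6 FPKM in the early alveolar group and from 13.7 through 26.6 to 40.5 in the late alveolar group. The lowest values were 19.3 and 13.7 FPKM in the P23 pups. It fell by 0.58 ± 0.16 (limma, adjusted p = 0.0157), a call lost only with P10 moved to the late group. Summed FPKM of 6 smooth muscle and pericyte markers went the same way, from 281 to 480 in the early alveolar group to 145 to 211 in the late alveolar group. Of the 6, limma called 3 lower (Acta2, Myh11 and Cnn1), and no other had an unadjusted p below 0.05. Of 6 fibroblast markers 4 were called lower and 1 higher, with sums of 702 to 1103 and then 406 to 755 FPKM. Of all genes, 7.47% were called lower and 3.89% higher in that comparison. The sum of 7 endothelial markers was 676 to 937 and then 660 to 1046 FPKM. Their part in the plexin changes was not tested.

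In class 3, Sema3a and Sema3c changed places. The genes lie on mouse chromosome 5 in the order Sema3d, Sema3a, Sema3e, Sema3c, within chr5:12383161-17730268 of GRCm38.p6 by RefSeq, the assembly that mm10 also names. Promoter windows, the 250 bases before an annotated start, were read from RefSeq for 26 of the 31 genes. No window was at hand for Sema3b, Sema3f, Plxna1, Plxna4 and Sema6a, genes that were called at birth. Those of Sema3a, Sema3c and Sema3g are printed because these genes changed with age and their windows differ in base composition. Sequences run 5′ to 3′ on the plus strand, from chr5:13396534-13396783, chr5:17574566-17574815 and chr14:31217623-31217872, and capitals mark each CG dinucleotide. The start used for Sema3a lies inside the span of the gene, chr5:13124822-13603485, and its other starts were not examined.
Sema3a: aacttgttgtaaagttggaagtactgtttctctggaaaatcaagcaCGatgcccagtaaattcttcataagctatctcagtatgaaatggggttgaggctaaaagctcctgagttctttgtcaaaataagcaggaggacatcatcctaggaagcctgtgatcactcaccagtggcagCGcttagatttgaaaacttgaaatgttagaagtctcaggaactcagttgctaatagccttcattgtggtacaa
Sema3c: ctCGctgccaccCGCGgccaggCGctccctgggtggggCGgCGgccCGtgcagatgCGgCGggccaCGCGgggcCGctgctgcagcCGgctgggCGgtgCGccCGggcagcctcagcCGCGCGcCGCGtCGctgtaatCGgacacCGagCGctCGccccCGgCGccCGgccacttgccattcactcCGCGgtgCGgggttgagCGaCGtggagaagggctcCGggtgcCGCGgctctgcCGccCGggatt
Sema3g: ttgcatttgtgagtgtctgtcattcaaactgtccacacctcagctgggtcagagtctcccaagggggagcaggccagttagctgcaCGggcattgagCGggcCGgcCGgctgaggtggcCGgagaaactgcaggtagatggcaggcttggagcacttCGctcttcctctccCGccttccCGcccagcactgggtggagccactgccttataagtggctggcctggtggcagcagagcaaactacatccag

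The Sema3a window held 2 CG dinucleotides and 40.8% G and C, and the Sema3c window 39 and 78.4%. Over 32851 windows of all genes the median was 52.4% G and C. Sema3c exceeded 98.1% of these windows and Sema3a 13.3%. The Sema3g window lay between, with 8 CG dinucleotides and 60.4%. The letters GGGCGG, known as the GC box and searched on both strands, occurred 3 times in the Sema3c window, once in that of Sema3g and not in that of Sema3a. They were found in 27 of the 37 windows of the family (73.0%) and in 32.7% of all windows. Each GGGCGG holds 1 of the CG dinucleotides in capitals. The letters TATAAA stood in 0 of the 37 windows and in 12.4% of all windows, and the letters CCAAT in 18.9% and 33.8%. A match is a description of these letters only.

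Sema3a, a secreted repellent that signals through Nrp1, stood at 54.6 and 39.2 FPKM at E16.5 and 101 and 73.6 at E18.5. It ran from 34.9 through 65.0 to 82.6 FPKM in the postnatal saccular group, from 17.7 through 37.2 to 54.0 in the early alveolar group, and from 20.2 through 24.8 to 46.1 in the late alveolar group. Both P10 pups, at 19.0 and 17.7 FPKM, were lower than every late alveolar pup. The groups overlapped. Sema3a fell by 1.06 ± 0.22 (SE) on the log2 scale from the postnatal saccular to the late alveolar group (limma, adjusted p = 0.00199), under all 41 alternatives, while the change at birth was -0.09 (adjusted p = 0.877).

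Sema3c, a secreted semaphorin best known from the outflow tract of the heart, stood at 25.5 and 23.4 FPKM at E16.5 and at 27.8 and 23.5 at E18.5. In the postnatal saccular group it ran from 31.7 through 48.6 to 60.9 FPKM. In the early alveolar group the pairs of pups stood at 38.2 and 50.2 FPKM at P4, 70.8 and 62.9 at P5, 114 and 81.4 at P7, and 116 and 139 at P10. In the late alveolar group it ran from 142 through 177 to 201 FPKM. Every late alveolar library thus lay above every early alveolar one, as for 0.39% of all genes. Sema3c rose by 0.89 ± 0.24 (SE) at birth (limma, adjusted p = 0.00914), by 1.12 ± 0.19 from early to late alveolar (adjusted p = 0.000129) and by 1.83 ± 0.19 from postnatal saccular to late alveolar (adjusted p = 6.2e-08). The last 2 calls were kept under all 41 alternatives, and the first was lost with E18.5 alone (0.86, adjusted p = 0.104).

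Sema3a was the higher of the pair in 4 of 4 prenatal and 7 of 8 postnatal saccular libraries, in 1 of 8 early alveolar and in 0 of 9 late alveolar libraries. The order was mixed at P0.5 and P4, with 1 pup each way, and Sema3c was higher in both pups at every age from P5 to P23 and in the P28 pup. As a share of the summed FPKM of class 3, Sema3a had medians of 46.1, 33.6, 20.2 and 9.11% in the 4 stage groups from prenatal to late alveolar. Sema3c had 17.7, 26.7, 42.7 and 58.2%. The sum itself had medians of 139, 187, 194 and 314 FPKM.

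**Figure D4:**
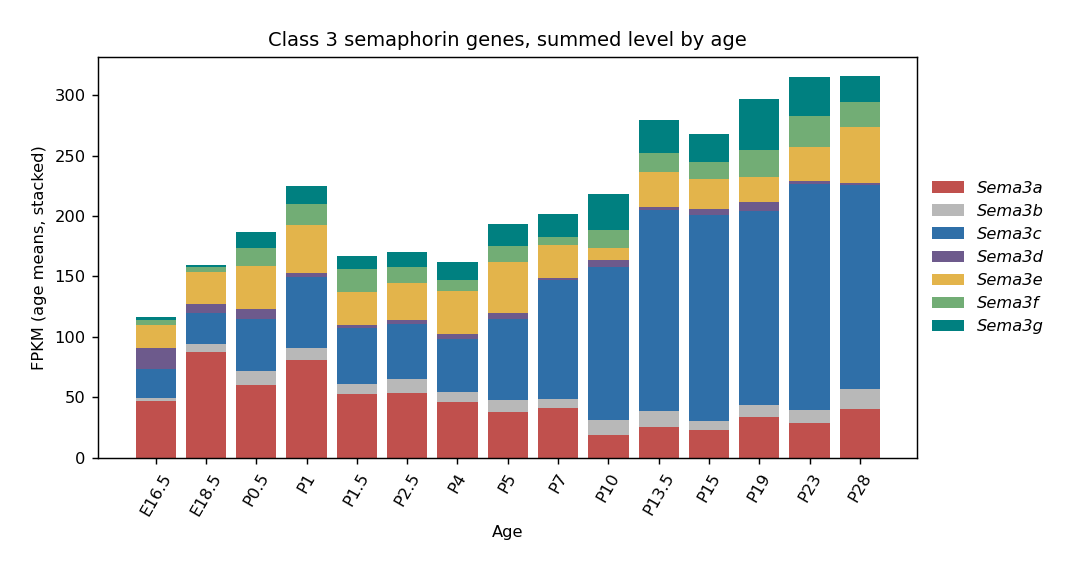
Mean FPKM of the 7 class 3 semaphorin genes at each age, stacked (vertical axis from 0, horizontal axis the 15 ages, 2 animals each and 1 at P28). The Sema3a part is largest at E18.5 and smallest at P10, and the Sema3c part grows with age. The median of the summed level is 139 FPKM in the prenatal and 314 FPKM in the late alveolar libraries.

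Sema3g, a class 3 member known from arterial endothelium, showed the largest change of the family at birth. Prenatal values were 3.67, 1.05, 1.07 and 3.72 FPKM, and both prenatal ages held a low and a higher embryo. It ran from 10.7 through 11.9 to 16.3 FPKM in the postnatal saccular group, 11.7 through 19.5 to 35.8 in the early alveolar group and 16.6 through 29.7 to 51.8 in the late alveolar group. The last lay wholly above the postnatal saccular group, as 0.91% of all genes did. Sema3g rose at birth by 2.13 ± 0.26 (SE; limma, adjusted p = 2.8e-06), with means of 2.38 ± 1.52 (SD, n = 4) and 12.7 ± 1.97 FPKM (n = 8). It rose by 1.15 ± 0.21 from postnatal saccular to late alveolar (adjusted p = 0.000411). Both calls held under all 41 alternatives.

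Sema3f and Sema3b lie on chromosome 9 with 72257 bases between them. Sema3f, a ligand of Nrp2, stood at 3.33, 5.15, 4.16 and 3.23 FPKM before birth and from 12.4 through 14.9 to 23.6 in the postnatal saccular group, with no overlap. It then ran from 6.57 through 10.5 to 17.0 FPKM in the early alveolar group and from 10.8 through 20.1 to 26.2 in the late alveolar group. It rose by 1.77 ± 0.25 (SE; limma, adjusted p = 1.2e-05) at birth and by 0.79 ± 0.19 from early to late alveolar (adjusted p = 0.00693), under all 41 alternatives. Sema3b stood at 2.37 and 2.35 FPKM at E16.5, 6.75 and 5.80 at E18.5 and 6.43 to 13.3 in the postnatal saccular group. Its rise of 1.16 ± 0.27 (adjusted p = 0.00306) was not called with E18.5 alone (0.60, adjusted p = 0.289).

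Sema3d, which guides endothelial cells of the pulmonary veins, fell at birth. It stood at 20.7 and 13.6 FPKM at E16.5, 8.31 and 7.40 at E18.5, and from 2.72 through 3.76 to 10.9 in the postnatal saccular group, the highest being P0.5 pup e. The fall by 1.25 ± 0.38 (SE; limma, adjusted p = 0.0243) was lost when either E16.5 embryo was left out and with E18.5 alone (-0.75, adjusted p = 0.434). The E16.5 libraries, which held the high values, were those rich in heart muscle genes, and the part of that tissue was not tested. Sema3e, the ligand of Plxnd1, changed with age (adjusted p = 0.0128) but between no pair of stage groups. Its lowest values were 7.47 and 12.7 FPKM in the P10 pups and its highest 52.8 in P5 pup e.

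**Figure D5:**
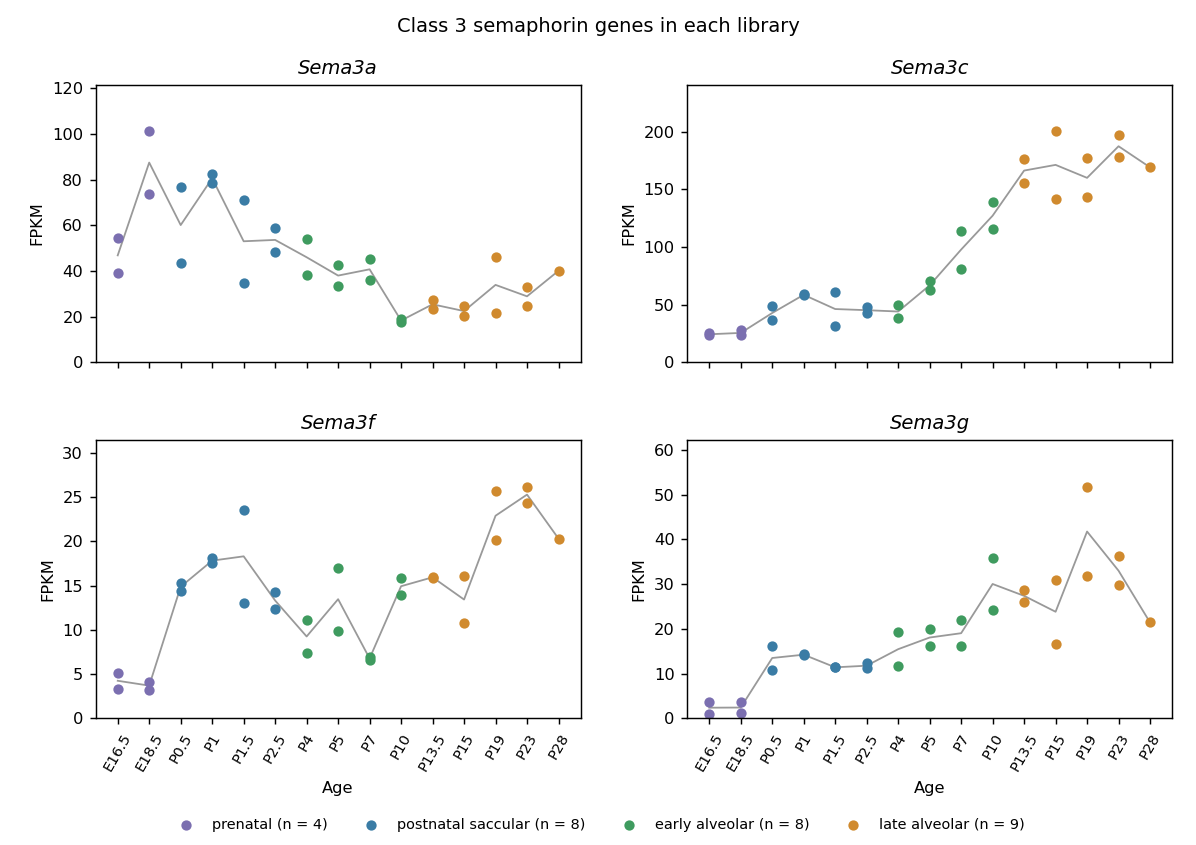
FPKM of Sema3a, Sema3c, Sema3f and Sema3g (vertical axes, each from 0) in every library by age (horizontal axis). Points are animals coloured by stage group and grey lines join age means. Sema3c lies between 23.4 and 27.8 FPKM in the prenatal group and between 142 and 201 in the late alveolar group, whereas Sema3a runs from 39.2 to 101 and from 20.2 to 46.1.

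Class 4 semaphorins, which signal mainly through B-type plexins, were lower in level. Sema4c stood at 8.69 and 13.8 FPKM at E16.5, 6.42 and 8.30 at E18.5, 10.0 through 14.4 to 19.9 in the postnatal saccular group, 14.1 through 17.4 to 21.9 in the early alveolar group and 4.71 through 9.53 to 14.8 in the late alveolar group. It rose at birth by 0.66 ± 0.22 (SE; limma, adjusted p = 0.0414), a call lost in 7 of 41 alternatives, all of them the loss of 1 library. It fell by 0.78 ± 0.18 from early to late alveolar (adjusted p = 0.00365), a call lost only with P10 moved to the late group. Its late values were also below the postnatal saccular ones, by -0.59, which 8 of 41 alternatives did not call. Sema4f had its highest values in the postnatal saccular group, 4.62 through 7.87 to 11.3 FPKM, and ran from 1.70 through 3.12 to 5.48 in the late alveolar group. The fall by 0.96 ± 0.25 (adjusted p = 0.0100) held under all 41 alternatives.

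Sema4a and Sema4d, the class 4 members known from immune cells, were called in no comparison of stage groups. For Sema4a the change from early to late alveolar, 0.86 ± 0.29 (SE; limma, adjusted p = 0.0501), lay at the threshold and was called in 11 of 41 alternatives, with group means of 1.97 and 4.97 FPKM. Both were highest in P15 pup c, at 12.4 and 21.3 FPKM, against 1.08 to 7.79 and 2.48 to 9.72 in the other late alveolar pups. That pup also had the highest sums of macrophage (143 FPKM) and of T and NK cell markers (119 FPKM), and their part in the values was not tested. All 8 postnatal saccular values of Sema4a, 2.76 to 7.04 FPKM, lay above the prenatal ones of 1.44, 2.24, 2.10 and 2.44, but the change of 0.71 was not called. Sema4b and Sema4g were not called either, with group means of 6.53 to 10.1 and 1.50 to 2.80 FPKM.

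In classes 5 to 7, Sema6a, Sema6d and Sema7a were called higher at birth. Sema6a, a membrane ligand of Plxna2 and Plxna4, stood at 11.9, 15.0, 18.2 and 24.8 FPKM before birth and from 38.7 through 45.3 to 55.2 in the postnatal saccular group, with no overlap. It rose by 1.39 ± 0.19 (SE; limma, adjusted p = 7.6e-06) under all 41 alternatives and then stayed between 29.4 and 59.6 FPKM. Sema6d, a ligand of Plxna1, stood at 25.1, 40.2, 23.0 and 27.2 FPKM before birth and had means of 40.9 ± 5.62 (SD, n = 8), 51.7 ± 9.18 (n = 8) and 37.5 ± 6.38 (n = 9) in the later groups. It rose at birth by 0.51 ± 0.16 (SE; adjusted p = 0.0300) and fell by 0.45 ± 0.13 from early to late alveolar (adjusted p = 0.0185). The first call was lost when any 1 of 4 libraries was left out. The second was lost without P4 pup e, the highest at 69.0 FPKM (-0.39, adjusted p = 0.0510), and without both P15 pup c and P28 pup c.

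Sema7a, the lipid-anchored ligand of Plxnc1 and of integrins, stood at 1.88 and 4.60 FPKM at E16.5, 7.35 and 8.67 at E18.5 and 6.81 through 15.8 to 21.3 in the postnatal saccular group. It rose by 1.33 ± 0.33 (SE; limma, adjusted p = 0.00593), which was lost with E18.5 alone (0.75, adjusted p = 0.297) and without E16.5 embryo 9. The P23 pups had its highest late values, 27.5 and 19.9 FPKM. Sema5a, with group means of 12.7 to 18.2 FPKM, and the low genes Sema5b, Sema6b and Sema6c were called between no stage groups. Sema6c passed the test over ages (adjusted p = 0.0363) with no library above 5.00 FPKM.

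Of 43 genes that act with or after these receptors (co-receptors, small GTPases and their exchange factors, kinases and cytoskeletal effectors), 38 were tested. At birth 6 rose and 0 fell, or 15.8% of them against 15.9% of all genes called, with a median log2 change of 0.15 against -0.00 over all genes. Fes, a kinase that acts after plexin A1, rose by 1.54 ± 0.31 (SE; limma, adjusted p = 0.000845) from 2.43 ± 1.00 (SD, n = 4) to 9.32 ± 3.83 FPKM (n = 8). Fyn, a kinase of the same pathway, rose by 0.91, the VEGF receptor Kdr by 0.70, and Furin, the protease that cuts class 3 semaphorins, by 0.87. With E18.5 alone Fes kept the call. Fyn (0.83, adjusted p = 0.0917) and Furin (0.77, adjusted p = 0.0913) lost it with changes of similar size, and Kdr lost it at 0.16 (adjusted p = 0.700). Early alveolar against postnatal saccular, 1 of the 38 rose, or 2.63% against 1.46% of all genes: the integrin subunit Itga1 (0.74, adjusted p = 0.0369), a call lost in 13 of 41 alternatives. From the postnatal saccular to the late alveolar group 3 rose and 3 fell, or 15.8% against 11.6% of all genes (4.41% higher and 7.15% lower). Cd72, the receptor for Sema4d on B cells, rose by 2.80 ± 0.43 (SE; limma, adjusted p = 4.8e-05), from 1.07 ± 0.945 (SD, n = 8) to 14.6 ± 9.56 FPKM (n = 9). Itga1, part of an integrin that Sema7a binds, rose by 1.16 ± 0.18 (adjusted p = 5.4e-05), with means of 52.6 ± 12.0 (SD, n = 8) and 117 ± 15.1 FPKM (n = 9). Mical2 and Gsk3b fell by 0.48 and 0.38. The calls of Cd72, Itga1, Mical2 and Gsk3b in this last comparison were kept under all 41 alternatives.

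From early to late alveolar 2 of these partners rose and 1 fell, or 7.89% of the 38 against 11.4% of all genes. The adhesion molecule Nrcam fell by 1.21 ± 0.26 (SE; limma, adjusted p = 0.00215), from 15.3 ± 5.90 (SD, n = 8) to 5.91 ± 2.38 FPKM (n = 9). Cd72 rose by 1.80 ± 0.43 (adjusted p = 0.00552). The sum of 5 B cell markers went from 7.24 to 21.9 FPKM in the postnatal saccular and 10.3 to 21.6 FPKM in the early alveolar group to 28.7 to 88.2 in the late alveolar group, and the part of B cells in the Cd72 value was not tested. Rnd1, a small GTPase that binds plexins, rose by 1.01 (adjusted p = 0.0217) on low values of 0.423 and 2.12 FPKM on average, and 4 of 40 alternatives lost the call.

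Of 8 VEGF ligands and receptors that share the neuropilins, 7 were measured. At birth 5 of the 7 rose and 0 fell, with a median log2 change of 0.89, where 9.11% of all genes were called higher and 6.81% lower. Vegfa, the main vascular growth factor, rose by 2.09 ± 0.29 (SE; limma, adjusted p = 1.1e-05), from 132 ± 107 (SD, n = 4) to 439 ± 56.0 FPKM (n = 8), and by 1.11 with E18.5 alone (adjusted p = 0.00586). The receptors Flt4 and Flt1 rose by 1.26 and 0.89, both also with E18.5 alone. Kdr, which is on the partner list too, rose by 0.70 but was not called with E18.5 alone (0.16, adjusted p = 0.700). From the postnatal saccular to the late alveolar group 1 of the 7 rose and 1 fell, where 4.41% of all genes were called higher and 7.15% lower. Vegfc, which binds Nrp2 and Flt4, had been called higher at birth, by 1.38 ± 0.39 (SE; limma, adjusted p = 0.0160). It then fell by 1.05 ± 0.31 (adjusted p = 0.0260), in the comparison in which Nrp2 fell. Its means from the prenatal to the late alveolar group were 4.35, 13.2, 7.72 and 6.33 FPKM. That fall of Vegfc was lost when any 1 of 3 libraries was left out. Flt1 went on to 56.0 ± 11.9 FPKM (SD, n = 9), higher than in the early alveolar group by 0.67 ± 0.14 (SE; adjusted p = 0.00224) and than in the postnatal saccular group by 0.89.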

How the data were processed

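The genes described, the stage groups and the gene lists were chosen with earlier results of these data known. Per the labels, total RNA of laser-cut septa was depleted of ribosomal RNA and sequenced on an Illumina HiSeq. Per the submitters' processing notes, STAR 2.5.1 and Cufflinks 2.2.1 were used on genome build mm10, and the deposited FPKM values are those the authors made with them. Settings, annotation and depth are not given in the sources used here, and FPKM does not keep the read count, so an FPKM of 0 may be a failed estimate. Where lines of a repeated gene ID differed (944 IDs), the one of highest mean was kept, and symbols came from RefSeq GRCm38.p6 (22718 of 22779 IDs matched).

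Genes with at least 1 FPKM in at least 4 libraries entered 1 limma fit (version 3.58.1, R 4.3.3) of 4 stage groups on log2(FPKM + 1), with an empirical Bayes trend. The age test used a natural spline (3 degrees of freedom), and E18.5 was set against E16.5 in a fit of 15 ages. The Nrp1 to Nrp2 ratio was tested by exact permutation of libraries. The fits were checked on simulated data. Every gene of the family is reported by role. Of the partner and VEGF lists up to 4 called genes per comparison of stage groups with the smallest p are named, and Vegfc is named at birth as well. Marker lists are given by counts and sums. Animals are separate, but whether pups of an age shared a litter is not stated. The labelled sex was not used.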

Additional observations from a re-analysis of the deposited data

Results flagged for a closer look

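Over the stage groups, 9 of 120 sets of values of a gene in a group held 1 library that stood far from the rest, its gap to the nearest value being a large part of the range of the group. Chance gives such a gap in about 1 in 20 sets, or 6 of 120. In the postnatal saccular group, P1.5 pup d stood out for Plxna2 (18.5 FPKM, the next 14.1) and for Sema4a (7.04, the next 4.61), and P0.5 pup e for Sema3d (10.9, the next 5.25). In the early alveolar group, P10 pup a, a library with many genes listed at 0, was highest for Plxnc1 (30.9 FPKM, the next 18.8) and for Sema3b (15.4, the next 10.3). P5 pup e was highest for Plxnb1 (36.5, the next 23.8). In the late alveolar group, P19 pup d, also rich in zeros, was highest for Sema3d (10.9, the next 5.07) and P15 pup c for Sema4d (21.3, the next 9.72). Before birth, E18.5 embryo 4 was the lowest for Plxna4 (3.79 FPKM, the next 7.40).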

How the results depend on the processing

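Each comparison was recomputed with another pseudocount (0.1), other filters (none, or 5 FPKM), other scalings, array quality weights, other groupings and each library left out. Leaving out a library of a group not compared acts on a limma result only through the shared spread and the genes tested. Summing repeated lines left the values of the family as they were. The alternatives are therefore not all equally able to change a call. At birth 13 genes were called, 8 with only the E18.5 embryos as prenatal libraries 8 to 13 with 1 library left out and 14 with quantile normalization or a fit of 15 age groups, each of which added Nrp1, and 6 were called under every alternative (Plxna1, Plxna4, Plxnb1, Sema3f, Sema3g and Sema6a). From postnatal saccular to early alveolar the count of 0 became 1 with the filter at 5 FPKM, 2 with quantile normalization, 3 with a fit of 15 age groups, 4 with array quality weights and 0 to 2 with 1 library left out. The genes gained were Sema3a, Sema3c, Sema4f and Plxnc1. From early to late alveolar 7 became 13 with array quality weights and 6 to 8 with 1 library left out. From postnatal saccular to late alveolar, 5 to 7 were called with 1 library left out. Between E18.5 and E16.5 the count of 0 became 2 with quantile normalization (Sema3b and Sema7a). Over ages 18 became 10 in the postnatal libraries alone, and 17 to 19 with 1 library left out. An alternative chosen after seeing the data, without P15 pup c and P28 pup c, gave 13, 0, 7, 5 and 18. Shares of all genes called are given only for the main fit, for E18.5 alone and for the postnatal libraries alone. The other counts describe how stable the calls were and cannot be set against all genes.

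The late against early difference of the Nrp1 to Nrp2 ratio was 0.44 with quantile normalization (adjusted p = 0.0963) and 0.42 to 0.67 with 1 library left out, several of which missed the threshold. Early against postnatal saccular it was 0.15 to 0.40, the largest without P4 pup a passing the threshold. At birth it was -0.52 to -0.37 and late against postnatal saccular 0.77 to 0.88. No value changed direction. No paired analysis was possible because replicate numbers follow accession order and the letters of pups tie no animals across ages. Unknown depth, 4 prenatal animals and 1 animal at P28 limit the precision.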

Other observations

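Marker lists of other cell types gave these counts of called genes. Of all genes, 9.11% were called higher and 6.81% lower at birth. From postnatal saccular to early alveolar the shares were 0.527% and 0.937%. From early to late alveolar they were 3.89% and 7.47%, and from postnatal saccular to late alveolar 4.41% and 7.15%. Of 6 type 2 epithelial markers, 4 rose at birth, and of 4 measured neutrophil markers 3 rose at birth and 3 fell from the postnatal saccular to the late alveolar group. Of 6 fibroblast markers 1 fell at birth, and from early to late alveolar 1 rose and 4 fell. Of 4 T and NK cell markers 2 rose from postnatal saccular to late alveolar, and of 4 macrophage markers limma called 0 between stage groups, with all 4 at an unadjusted p below 0.05 at birth. Of 5 heart muscle markers 2 fell at birth and limma called 0 later, with 2 at an unadjusted p below 0.05 in late alveolar against postnatal saccular, Nppa being at 0 in every late alveolar library. Of 4 airway markers 2 rose at birth, with sums of 27.4 to 465 FPKM before birth and 555 to 4462 in the postnatal saccular group. Of 2 measured erythroid markers 1 fell at birth, of 4 mesothelial markers 1 fell in each postnatal comparison, and of 4 tested nerve and Schwann cell markers 1 rose at birth. No test related these lists to the semaphorin family.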
